A study of Leymus chinensis with 14 samples.

Results

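The response of leaf transcripts to high salt at low light was examined in sheepgrass (Leymus chinensis), a forage grass of the steppe, in 5 of the 14 RNA-seq libraries of the series. The 2 libraries titled low light with high salt (replicates 1 and 2) were set against the 3 titled low light with ck (replicates 1, 2 and 3), where ck is taken as the check without added salt. All plants were raised on a Murashige and Skoog medium and leaves were taken at 3 weeks of age, so low light, the medium and the age were shared by both groups and salt was what the titles say differed. The other 9 libraries, 3 each of ck, low salt and high salt at normal light, entered the estimate of spread, and ck and high salt among them gave the comparison at normal light. The labels give no salt concentration, light level, cultivar or number of plants per library. They call the samples replicates without saying that they came from separate plants, so every p-value below reflects only how far these samples spread, and that spread may be technical. Of 29560 loci (groups of assembled transcripts, numbered g as deposited), 20684 had a plant species as best protein hit. Of these plant loci, 16029 reached an abundance of at least 1 in at least 2 libraries and were tested, 12400 of them with a description of function.

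Salt takes water from a leaf by osmotic pull and loads it with sodium. Abscisic acid, made from carotenoids by 9-cis-epoxycarotenoid dioxygenases (NCEDs), is the hormone that signals water shortage, and it acts by relieving the block that clade A protein phosphatases 2C (PP2Cs) place on a set of protein kinases. Leaf cells also make glycine betaine, proline and other osmolytes, accumulate hydrophilic dehydrins and other late embryogenesis abundant (LEA) proteins, and pump sodium out of the cytosol. Choline, the substrate of betaine synthesis, is made by stepwise methylation of phosphoethanolamine. In low light the supply of sugar and reducing power from photosynthesis is limited.

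Few plant transcripts were called higher or lower with high salt at low light. Those called higher included a carotenoid dioxygenase and a methyltransferase of choline synthesis. With 2 libraries against 3, a small count of calls does not show that few transcripts changed. Of the 16029 tested plant loci, 52 were called at a limma adjusted p under 0.05 (0.324%), 49 higher (0.306%) and 3 lower (0.0187%). At an unadjusted p under 0.05 there were 734 higher and 360 lower. The median log2 change of all tested plant loci was 0.00. Outside the plant loci, the same fit called 64 of 4243 tested loci without a species, 63 of them higher. Of the 49 higher loci, 10 had a mean of at least 1 in the ck libraries and 19 were listed at 0 in all 3 of them. The calls rested on both high-salt libraries together. Without high-salt replicate 1 there were 2 higher and 0 lower, without replicate 2 there were 0 and 0, and none of the 52 was called in either case, where 27 of them no longer passed the filter on low values. A fit of the 5 low-light libraries alone called 0 plant loci. Without ck replicate 2 there were 32 higher and 11 lower, and without ck replicates 1 and 3 there were 17 and 11 lower.

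The high-salt pair held more loci at 1 or more that were near 0 elsewhere than any other pair of 1 group, but not more such plant loci. Both libraries of the pair held 41 loci at 1 or more that were at 0.1 or less in each of the other 12 libraries. In the 12 within-group pairs of the other groups that number was 0 to 28, with a median of 4, but there a locus also had to be absent from the third library of the group. Set against the other 4 groups alone, those pairs held 2 to 35, with a median of 5.5. Of the 41 loci, 24 had no species given, 1 was fungal and 16 were plant loci, within the 1 to 24 plant loci of the other pairs counted in the latter way. All 16 plant loci were among the 49 called higher. Leaving them out of the count left 33 higher and 3 lower. In all, 33 of the 49 higher loci passed the filter on low values through the high-salt pair alone and 2 of the 3 lower loci through the low-light ck libraries alone. Such a locus had to differ, so its call is no separate evidence. Summed abundance ran from 470103 to 512481 over the 5 libraries, and 10.28% and 11.32% of transcripts were listed at 0 with high salt, against 13.57% to 15.92% in ck. On the log2 scale the 2 high-salt libraries correlated at 0.922 and the 3 ck libraries at 0.846 to 0.863. The part of these library differences in the calls was not tested.

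**Figure D1:**
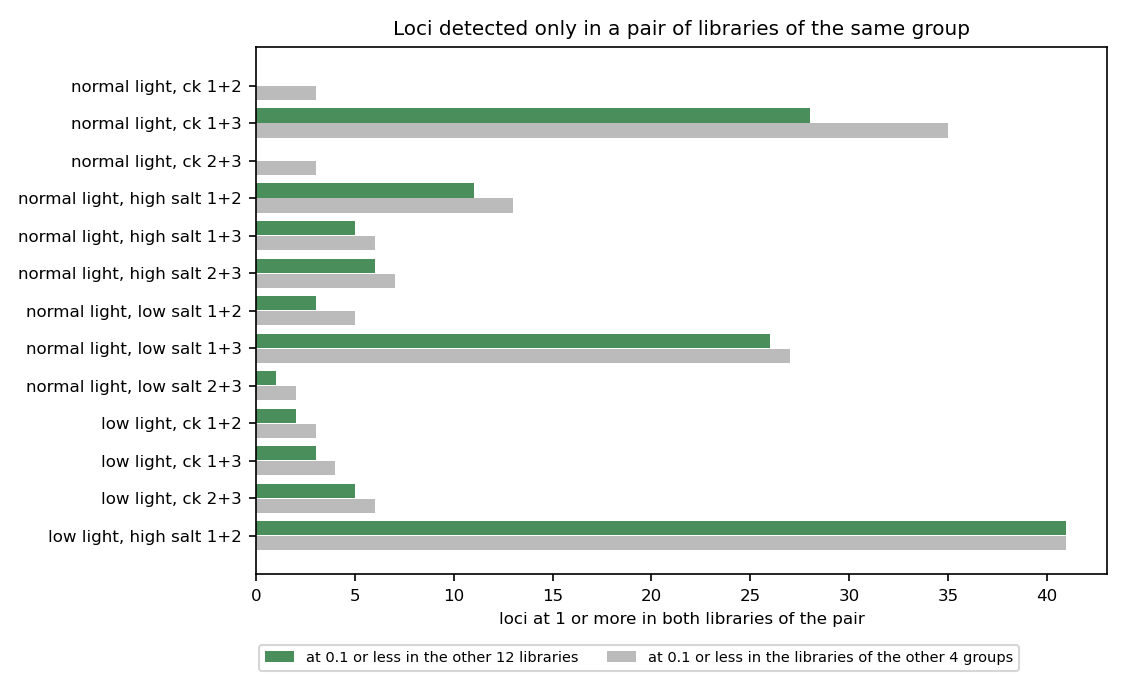
Number of loci (x axis) at 1 or more in both libraries of a within-group pair and at 0.1 or less in the other 12 libraries, for each pair (y axis, group and replicate numbers) in green, and in grey the number when the third library of the same group is not considered. The low-light high-salt pair has 41, the next pairs 28 and 26 in green and 35 and 27 in grey.

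The tissue label was checked against marker loci. Loci of green mesophyll (72, of which 58 were tested) summed to 42240, 41410 and 43960 in ck and to 34090 and 65710 with high salt, so the groups overlapped, and 1 was called higher and none lower. Root marker loci summed to 32.24 to 135.0 in ck and to 37.49 and 37.82 with high salt. Dividing tissue summed to 722.5 to 1511 in ck and to 1098 and 1033 with high salt. Epidermis loci summed to 44.64 to 78.16 and to 66.57 and 41.05, and loci of lignifying tissue to 75.36 to 241.3 and to 105.3 and 217.6, in that order of groups. Loci with a fungal best hit, left out of all counts of plant loci, summed to 424.8, 1477 and 1012 in ck and to 2039 and 1464 with high salt. None of these sums separated the groups. By single loci, 2 of 200 tested fungal loci were called higher and none lower. At an unadjusted limma p under 0.05 there were 87 of these 200, in either direction, beside 1094 of the 16029 tested plant loci. The source of this difference was not tested. In such bulk leaf samples fewer cells of a type and less RNA per cell cannot be told apart.

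A carotenoid dioxygenase locus had the largest rise among the loci of the abscisic acid list. The locus (g79474) stood at 7.74, 22.9 and 7.26 in ck and at 284 and 185 with high salt (log2 change 4.26, SE 0.69, limma adjusted p = 0.016). Both high-salt libraries lay far above all 3 ck libraries. Its best Swiss-Prot hit, NCED3, is only 30.38% identical, so the name is uncertain. At normal light the locus rose as well, from 7.95, 35.2 and 6.72 to 78.9, 51.8 and 126 (a log2 change of 2.58, limma adjusted p = 0.044). The rise at low light exceeded it by 1.68 log2 units, with an interaction that was not called (limma adjusted p = 0.42).

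The 5 other tested loci with an NCED best hit were not called. The NCED3 locus g25657 (91.0% identity) stood at 1.93, 1.39 and 2.50 in ck and at 5.88 and 6.59 with high salt (limma adjusted p = 0.33). The NCED5 locus g25762 (89.1%) stood at 0.969, 0.605 and 1.61 against 2.81 and 3.86. In both, the groups did not overlap. The abundant NCED1 locus g1770 (87.12%) stood at 859, 592 and 246 in ck and at 691 and 467 with high salt, within the range of ck. A distant hit, g20126 (29.41%), stood at 99.8, 342 and 68.6 against 884 and 981 (limma adjusted p = 0.33), again without overlap.

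Of 30 tested loci for abscisic acid synthesis and signalling, 1 was called higher and none lower, against 0.324% of all plant loci. The list median was 0.53 on the log2 scale, beside 0.00 for all plant loci. High salt lay above ck without overlap in 13 of the 30 and below in 1. Over all tested plant loci these shares were 10.9% above and 8.06% below. The PP2Cs, negative regulators of the pathway whose transcripts are known in Arabidopsis to be induced by the hormone, made up 6 of the 13. The most abundant, PP2C 50 (g13810), stood at 34.2, 11.1 and 25.6 in ck and at 106 and 52.2 with high salt (limma adjusted p = 0.18). PP2C 51 (g27188) was near 0 in ck, at 0.139, 0.0709 and 0.0413, and stood at 2.61 and 2.25 with high salt (limma adjusted p = 0.065). The abscisic acid 8'-hydroxylases, which inactivate the hormone, overlapped between the groups, with g15823 at 5.97, 6.42 and 16.2 against 14.1 and 21.0. SAPK2 (g20493), a kinase of the pathway, was the locus below ck, at 12.2, 14.4 and 12.8 against 9.18 and 7.07 (limma adjusted p = 0.46).

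Transcripts for the methylation of phosphoethanolamine were higher with high salt at every tested locus, 1 of which passed the test. Phosphomethylethanolamine N-methyltransferase (g83402), which completes phosphocholine synthesis, rose from 673, 190 and 286 in ck to 1393 and 1837 with high salt (log2 change 2.27, SE 0.42, limma adjusted p = 0.033). Both high-salt libraries exceeded the highest ck library, replicate 1. All 8 tested loci named as phosphoethanolamine or phosphomethylethanolamine N-methyltransferases lay above ck without overlap, against 10.9% of all plant loci. Their log2 changes were 0.56 to 2.69, with a median of 2.23. Of the 8, 1 was called, where 0.306% of all plant loci were called higher. Together the 8 stood at 1161, 310.5 and 414.3 in ck and 2085 and 2979 with high salt. Ck replicate 1 was the highest ck library in all 8. The loci have similar names and identities, and how reads of near-identical copies were shared among them is unknown. At normal light the median of the 8 was 1.28, with g83402 at 805, 964 and 1233 in ck and at 2018, 2330 and 2274 under salt (limma adjusted p = 0.096).

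The later steps of betaine synthesis did not show this separation. Both choline monooxygenase loci, which oxidise choline, overlapped between the groups, with g82288 at 33.3, 11.2 and 13.98 in ck and at 19.1 and 15.6 with high salt. None of 5 betaine aldehyde dehydrogenase loci was called or separated. The most abundant of them (g15846) stood at 149, 163 and 206 in ck and at 200 and 241 with high salt (limma adjusted p = 0.86). At normal light that locus rose (log2 change 1.34, limma adjusted p = 0.022), as did g25145 (log2 change 1.93, limma adjusted p = 0.017). The rest of the 5 were not called there. The median of the 5 was 0.30 at low light and 1.34 at normal light, beside 0.00 and 0.30 for all plant loci. The interaction called none of them. Delta-1-pyrroline-5-carboxylate synthase 2 (g16662), the first enzyme of proline synthesis from glutamate, stood at 8.10, 15.8 and 15.7 in ck and at 71.9 and 29.0 with high salt (limma adjusted p = 0.73). Across the 31 tested osmolyte loci 1 was called higher (all plant loci, 0.306%), and the median log2 change was 0.06. Of the 31, 10 lay above and 1 below ck without overlap (all plant loci, 10.9% and 8.06%). Those 10 included all the methyltransferases above.

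**Figure D2:**
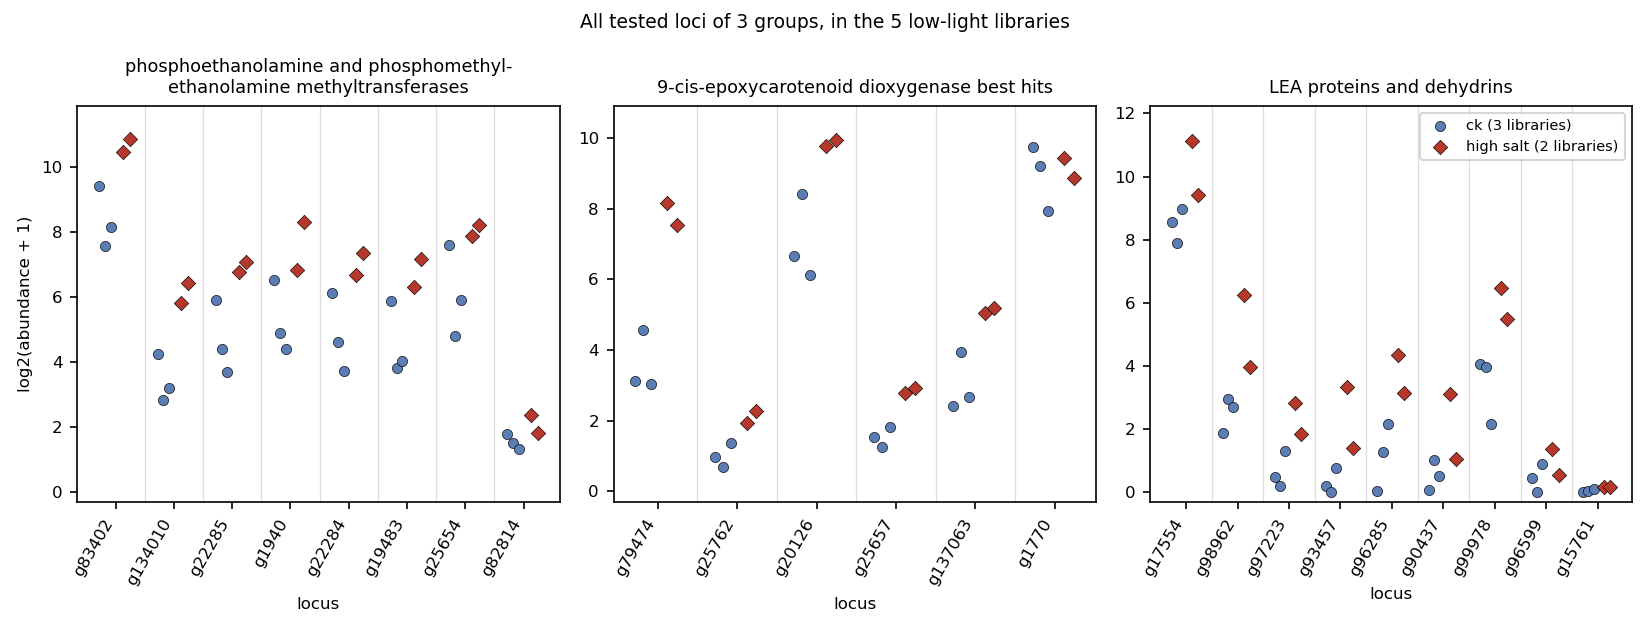
log2(abundance + 1) of each tested locus (x axis) in the 3 low-light ck libraries (blue circles) and the 2 high-salt libraries (red diamonds), for 8 choline-pathway methyltransferases, 6 loci with an NCED best hit, and 9 LEA protein loci. Red lies above blue in all 8 methyltransferases, 5 of the 6 NCED hits and 8 of the 9 LEA loci.

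LEA proteins and dehydrins, which stabilise membranes and proteins in drying cells, stood mostly above ck, but none of the 9 tested loci was called. Their median log2 change was 1.79, beside 0.00 for all plant loci, and 8 of 9 lay above ck without overlap, against 10.9% of all plant loci. The most abundant, a group 3 LEA protein (g17554), stood at 377, 237 and 503 in ck and at 2208 and 684 with high salt (log2 change 1.79, SE 0.54, limma adjusted p = 0.28). High-salt replicate 1 exceeded replicate 2 in all 9 loci. The 6 dehydrins summed to 19.01, 24.12 and 15.17 in ck and to 205.6 and 71.82 with high salt, with a median log2 change of 2.32. The dehydrin DHN3 locus g99978 stood at 15.7, 14.7 and 3.51 against 87.8 and 44.0 (limma adjusted p = 0.63). At normal light the list median was 2.31, and g17554 rose there from 72.5, 144 and 219 to 852, 546 and 740 (log2 change 2.40, limma adjusted p = 0.029).

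Transporters that move sodium, potassium and protons gave no call among 75 tested loci, with a median log2 change of 0.11. High salt lay above ck without overlap in 18 and below in 1, where all plant loci had 10.9% and 8.06%. The 14 V-type proton ATPase loci, which energise the vacuolar membrane, summed to 1052, 944.4 and 938.7 in ck and to 1083 and 941.5 with high salt, within the range of ck. The outward potassium channel KOR1 (g88335) stood at 1.59, 0.609 and 0.529 in ck and at 4.13 and 3.34 with high salt (limma adjusted p = 0.35). Sodium/hydrogen exchanger 7 (g8789), the name of the plasma membrane sodium exporter of Arabidopsis, stood at 34.0, 58.1 and 17.3 against 60.6 and 62.1 (limma adjusted p = 0.77). The most abundant proton pump, a plasma membrane ATPase (g9549), stood at 424, 332 and 298 in ck and at 332 and 293 with high salt, so the groups overlapped. Of 6 aquaporins, the water channels of plant membranes, none was called. The most abundant, PIP2-1 (g23268), stood at 56.1, 61.5 and 45.3 against 39.6 and 42.7 (limma adjusted p = 0.82).

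Redox enzymes, named in the title of the series, gave no call at low light. Of 41 antioxidant enzyme loci none was called, the median log2 change was -0.13, and 3 lay above and 6 below ck without overlap, beside 10.9% and 8.06% of all plant loci. A 2-Cys peroxiredoxin of the chloroplast (g79784), which reduces hydrogen peroxide, stood at 239, 311 and 391 in ck and at 195 and 226 with high salt (limma adjusted p = 0.65). Chloroplast glutathione reductase (g23385), which regenerates glutathione, stood at 109, 163 and 109 against 89.0 and 82.3 (limma adjusted p = 0.68). Catalase-1 (g27049), the peroxisomal enzyme that breaks down hydrogen peroxide, stood at 319, 1212 and 228 in ck and at 613 and 677 with high salt, so the groups overlapped. Among 41 thioredoxin and glutaredoxin loci, 34 glutathione S-transferases and 7 respiratory burst oxidases none was called, and their medians were -0.01, 0.01 and 0.02.

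Photosynthesis loci were mostly not called, with 1 exception in photosystem I. Subunit IV of the photosystem I reaction centre (g94898), which helps to dock ferredoxin, rose from 61.1, 73.9 and 66.7 in ck to 270 and 230 with high salt (log2 change 1.88, SE 0.37, limma adjusted p = 0.048). The groups lay far apart, and the normal-light ck libraries stood at 156, 358 and 121. The other 7 photosystem I loci overlapped between the low-light groups. Of 94 photosystem and electron transport loci 2 were called higher and none lower, beside 0.306% and 0.0187% of all plant loci. The second (g142978) is named as a mitochondrial adrenodoxin-like ferredoxin and stood at 0.0377, 0 and 0 in ck and at 3.601 and 2.69 with high salt. It passed the filter through the high-salt pair alone. None of 30 antenna loci, 34 Calvin cycle loci or 42 photorespiration loci was called. The Rubisco small chain (g196503) stood at 1617, 1377 and 772 in ck and at 932 and 1656 with high salt.

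List medians were set side by side with those at normal light, and the difference of medians was not tested. The photosystem and electron transport list had a median log2 change of 0.16 at low light and -0.54 at normal light, beside 0.00 and 0.30 for all plant loci. Median-of-ratios scaling moved the median of all plant loci at normal light to 0.0155, so the values there are read relative to it. For the Calvin cycle list the medians were 0.00 and -0.70, and for photorespiration 0.31 and -0.29. Cytosolic ribosomal proteins (111 tested) had none called and a median of 0.09 at low light, and 49 called higher and a median of 1.22 at normal light, where 3.45% of plant loci were called higher. The interaction called no locus of any of these 4 lists. At normal light 715 of the tested plant loci were called (4.46%), and 3 loci were called in the same direction at both light levels, namely g79474, g19771 and the uncharacterised g84646. The comparison at normal light had 3 libraries in each group, and a count there is not on a par with one from 2 against 3.

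**Figure D3:**
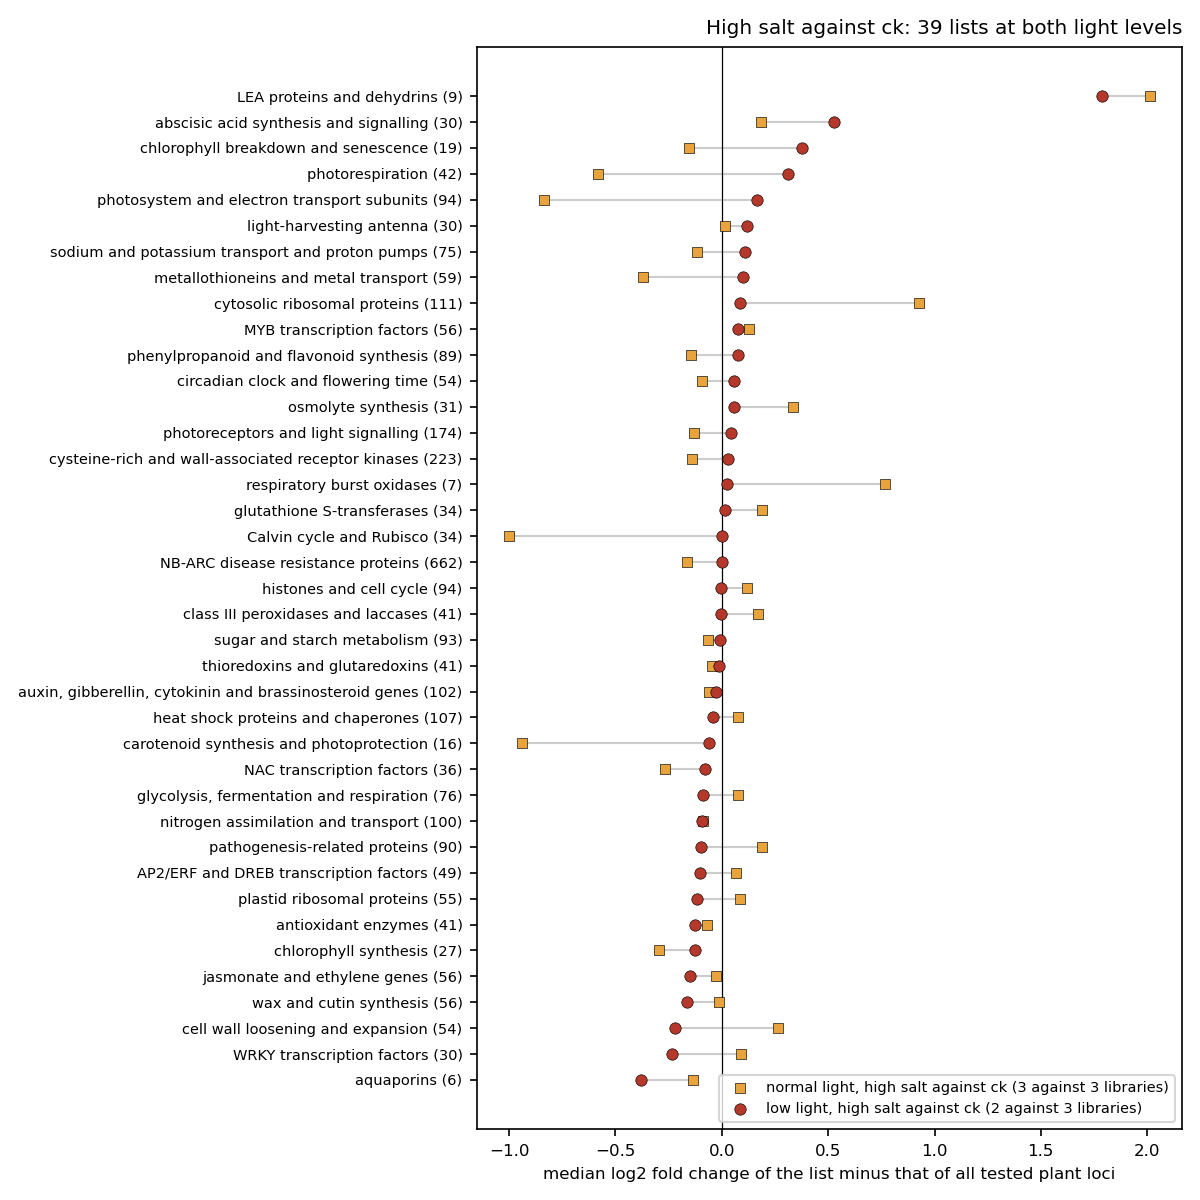
Median log2 fold change (high salt against ck) of each of 39 lists minus the median of all tested plant loci, at low light (red circles) and normal light (orange squares), with tested loci in brackets. LEA proteins lie highest at both light levels, while the Calvin cycle, photosystem and cytosolic ribosomal protein lists lie near 0 at low light and away from it at normal light.

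Several other called loci were expressed in ck and had a described function. CASP-like protein 2D1 (g17), of a family of 4-span membrane proteins, rose from 29.4, 19.5 and 26.6 to 109 and 82.4 (log2 change 1.89, SE 0.23, limma adjusted p = 0.0019). Cytochrome b5 (g94534), an electron donor to lipid desaturases and cytochromes P450, rose from 16.1, 54.3 and 16.6 to 123 and 100.1 (log2 change 2.13, limma adjusted p = 0.047). In neither did the groups overlap. At normal light without salt they stood at 83.1 to 92.9 and at 47.2 to 75.9. A pentatricopeptide repeat protein (g2655), of the family that binds organelle RNA, rose from 4.18, 2.05 and 2.32 to 21.5 and 14.1 (log2 change 2.30, SE 0.30, limma adjusted p = 0.0035). A disease resistance protein with a best hit to At1g15890 (g1534) rose from 11.9, 9.35 and 7.44 to 41.3 and 30.5 (limma adjusted p = 0.033).

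A further pair with described functions was scarce in ck. Isoaspartyl peptidase/L-asparaginase 2 (g84746), which releases ammonia from asparagine, rose from 0.402, 0.122 and 1.40 to 20.8 and 22.04 (log2 change 3.85, limma adjusted p = 0.037). It stood at 23.4 to 51.6 in normal-light ck. Glucomannan 4-beta-mannosyltransferase 1 (g19771), which builds the mannan backbone of the cell wall, rose from 0.486, 0 and 2.04 to 17.7 and 7.05 (log2 change 2.89, limma adjusted p = 0.041). The locus also rose at normal light (limma adjusted p = 0.028). Of the 18 called loci named under the naming rule, 10 stayed called with a pseudocount of 0.1, 4 with a minimum fold of 1.5, and 3 of the 12 that passed a filter of at least 5. Leaving out a low-light ck library kept 8 to 10 of the 18. Leaving out either high-salt library kept 0 of the 13 that still passed the filter, and the 5 low-light libraries alone kept 0. After median-of-ratios scaling 14 stayed called. The others were g84746, g94534, g94898 and g142978, with limma adjusted p-values of 0.071, 0.10, 0.064 and 0.068.

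**Figure D4:**
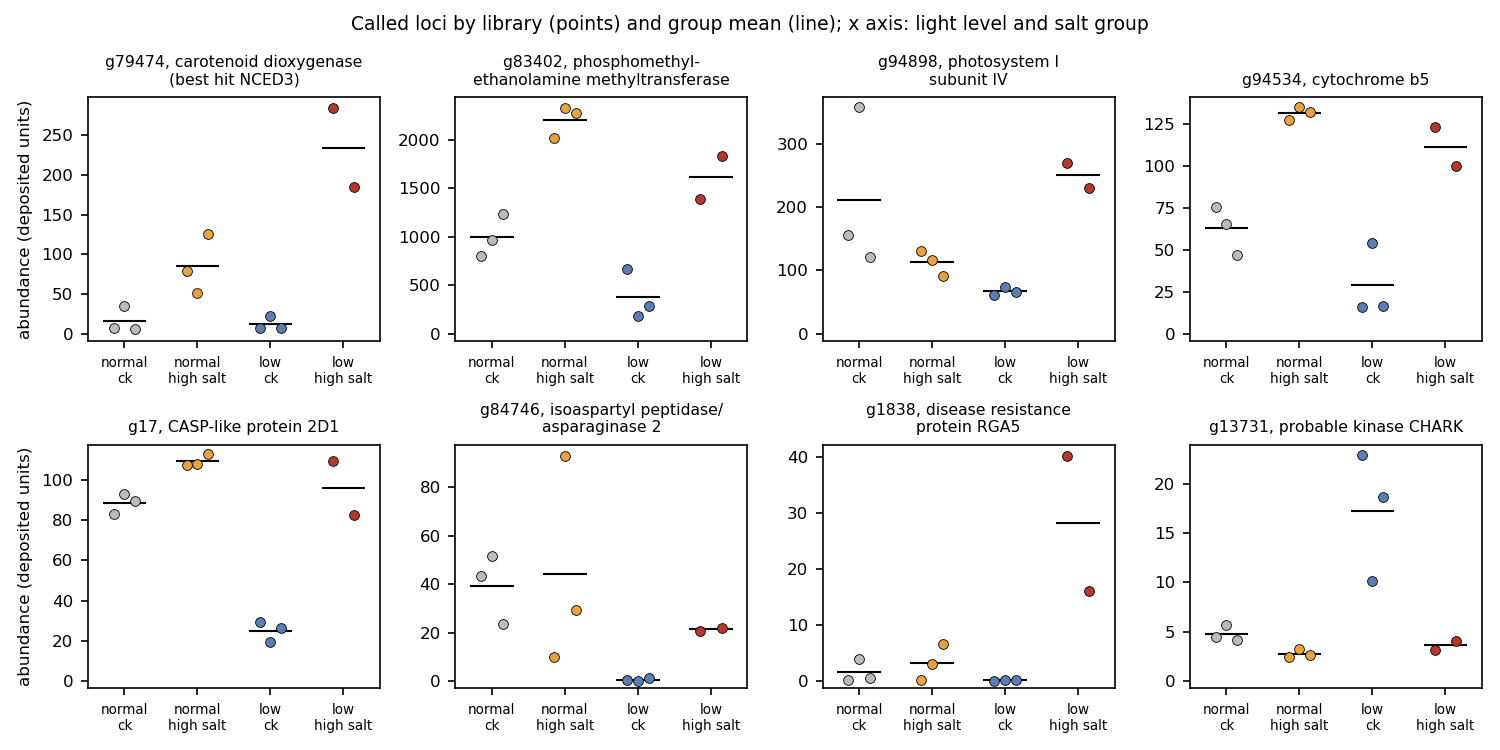
Abundance (y axis, deposited units, linear) of 8 called loci in each library (points) of 4 groups, with the group mean as a line. In 7 loci both low-light high-salt libraries (red) lie above all low-light ck libraries (blue), and in the kinase locus g13731 they lie below.

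Disease resistance proteins of the NB-ARC type, intracellular immune receptors with a nucleotide-binding domain, supplied 8 of the 49 higher loci. The 8 are 1.21% of the 662 tested, beside 0.306% of all plant loci called higher, and none was lower. Of the 8, 5 were at 0.1 or less in all 12 other libraries and 1 had a ck mean of at least 1. Without loci at 0.1 or less in all 12 other libraries and at 1 or more in both high-salt libraries, 3 of 657 were higher (0.457%). The same count over plant loci was 33 of 16013 (0.206%). It still holds loci that passed the filter through the high-salt pair alone, so none of these shares is separate evidence about the family. The RGA5 locus g1838 stood at 0.0625, 0.165 and 0.279 in ck and at 40.2 and 16.1 with high salt (log2 change 4.51, SE 0.73, limma adjusted p = 0.016). A second RGA5 locus, g1435, was listed at 0 in all 12 other libraries and stood at 13.7 and 7.74 with high salt, and it passed the filter through that pair alone. RGA5 is the best hit of 121 tested loci, whose summed abundance was 351.6, 221.0 and 281.0 in ck and 354.6 and 257.4 with high salt, so the groups overlapped. The median log2 change of the NB-ARC list was 0.00. High salt lay above ck without overlap in 104 and below in 35 of the 662, beside 10.9% and 8.06% of all plant loci. How reads were shared among the copies of so large a family is unknown.

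Of 174 tested loci for photoreceptors and light signalling 2 were called higher, beside 0.306% of all plant loci, and none lower. Both were named FAR1-RELATED SEQUENCE 5, of a family derived from transposases. The loci g88735 and g151844 stood at 5.15 and 1.87 and at 1.83 and 2.33 with high salt, and at no more than 0.393 in ck. Both passed the filter through the high-salt pair alone. The 108 loci of that family had a median log2 change of 0.12. Transcription factors of the AP2/ERF, WRKY, NAC and MYB families gave no call among 49, 30, 36 and 56 tested loci. The WRKY median was -0.23, with 1 above and 5 below ck without overlap, beside 10.9% and 8.06% of all plant loci. A bHLH19 locus (g26697) was listed at 0 in all ck libraries and stood at 6.70 and 4.53 with high salt, and it too passed the filter through that pair alone.

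Of the tested plant loci 3 were called lower. The kinase CHARK locus (g13731), named after a receptor-like kinase of rice, fell from 22.9, 10.2 and 18.7 to 3.19 and 4.05 (log2 change -1.92, SE 0.32, limma adjusted p = 0.019). In normal-light ck it stood at 4.13 to 5.74. Gibberellin 2-beta-dioxygenase 6 (g27565), of the enzymes that inactivate gibberellins, stood at 5.57, 4.08 and 2.05 in ck and was listed at 0 in both high-salt libraries. In normal-light ck it was listed at 0.678 or less. The third was a Ty3-G transposon polyprotein locus (g1465), at 11.5, 2.97 and 4.49 in ck and listed at 0 with high salt. These last 2 loci passed the filter through the low-light ck libraries alone.

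Other loci chosen by the naming rule were lower without overlap but missed the threshold. A cysteine-rich receptor-like kinase (g22474) stood at 31.1, 11.8 and 14.4 in ck and was listed at 0 in both high-salt libraries (limma adjusted p = 0.063). The auxin-responsive repressor IAA6 (g14289) stood at 34.9, 41.9 and 30.9 in ck and at 17.4 and 13.6 with high salt (log2 change -1.16, limma adjusted p = 0.067). The disease resistance locus RGA4 (g8996) stood at 33.4, 32.2 and 12.8 against 3.10 and 2.51 (limma adjusted p = 0.095).

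Whether the response to salt depended on light was tested as the difference between the changes at low and at normal light. Of the tested plant loci 21 were called (0.131%), 16 more positive (0.0998%) and 5 more negative (0.0312%) at low light. An unadjusted p under 0.05 was reached by 2391. The median log2 change of all plant loci was 0.00 at low light and 0.30 at normal light, and the interaction values include this offset. Median-of-ratios scaling moved these medians to -0.0211 and 0.0155, and 29 loci were then called. Of the 21, 10 were also called at low light and 11 at normal light, and 7 of the 21 stood at 0.6 or less in the 9 libraries of ck and of normal-light high salt. The count was 1 and 2 without high-salt replicates 1 and 2 of low light, and 53 and 36 without low-light ck replicates 1 and 2. It was 9, 103 and 10 without normal-light ck replicates 1, 2 and 3, and 12 and 88 without normal-light high-salt replicates 1 and 3. Beta-glucosidase 3 (g92910), of a family that removes glucose from conjugates, stood at 13.0, 33.3 and 11.98 in low-light ck and at 42.2 and 24.98 with salt added. At normal light it fell from 57.6, 42.6 and 86.5 to 2.97, 6.40 and 0.481 (interaction log2 4.97, limma adjusted p = 0.028). ABC transporter C family member 8 (g1392), of a family that loads conjugates into the vacuole, stood at 1.43 in each low-light ck library and at 12.4 and 15.2 with high salt (interaction log2 4.27, limma adjusted p = 0.037). At normal light it stood at 51.7, 16.5 and 35.7 in ck and at 11.3, 12.1 and 5.50 with high salt.

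A beta and an alpha tubulin locus, for subunits of microtubules, were among the loci with a more negative change at low light. No count was made over all tubulin loci. Tubulin beta-5 (g13742) stood at 81.6, 76.4 and 85.0 in low-light ck and at 101 and 61.8 with salt added, and at normal light it rose from 17.5, 13.2 and 9.98 to 117, 91.2 and 153 (interaction log2 -3.10, limma adjusted p = 0.022). A tubulin alpha chain (g81447) stood at 64.7, 43.3 and 46.8 against 44.3 and 36.6 at low light, and rose from 10.1, 15.9 and 12.5 to 57.2, 41.4 and 39.7 at normal light (interaction log2 -2.10, limma adjusted p = 0.041). The plastid phosphoenolpyruvate/phosphate translocator 1 (g16465), which imports phosphoenolpyruvate into plastids, stood at 57.6, 113 and 66.7 against 45.1 and 35.6 at low light and rose from 19.5, 20.4 and 14.2 to 48.2, 45.3 and 63.0 at normal light (interaction log2 -2.38, limma adjusted p = 0.033). In all 3 loci each low-light ck library exceeded every normal-light ck library.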

How the data were processed

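Leaf total RNA was sequenced in 14 libraries, and the extraction text in the labels mentions rice leaves. StringTie 1.3.0, HISAT2 2.0 and Bowtie 0.12.2 are listed per the submitters' processing notes, with mm8, a mouse build, as genome. Their roles, and the steps of assembly and quantification, are not given in the sources. The authors deposited 1 abundance signal per assembled transcript and library in a unit they do not name, of a kind with TPM or FPKM. No counts are given, so the depth is unknown. The table stops at 65536 lines, header included, and may hold only part of the assembly. After 4 broken lines and 3 loci at the table's edges were left out, 65514 transcripts were summed to loci.

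Loci at 1 or more in at least 2 libraries (20567, all organisms) entered 1 limma fit of 5 group means (limma 3.58.1, R 4.3.3, robust eBayes with a trend) on log2(value + 1), with p-values adjusted by Benjamini-Hochberg over all of them. Fold changes on this scale understate those of scarce loci. The fit was first tested on simulated data. Names come from the best database hit of the most abundant annotated transcript and do not prove function. The comparison, the 39 lists (matched by text in the Swiss-Prot or Nr name) and the markers were chosen with earlier results of these data known. Matching both names was decided after the table was seen. The naming rule took described loci with no overlap between groups, a log2 change of 1 or more in size and a mean of at least 5, up to 10 in each direction, and up to 3 called loci (or the most abundant) of each list. Other loci were named after their values were seen. Replicate numbers were not taken to pair the libraries.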

Additional observations from a re-analysis of the deposited data

Results flagged for a closer look

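In 21 plant loci the change with high salt differed between low and normal light by the interaction test (limma, Benjamini-Hochberg adjusted p under 0.05). The change was more negative at low light in 5 described loci. The interaction log2 value was -3.10 for tubulin beta-5 (g13742), -2.10 for a tubulin alpha chain (g81447) and -2.38 for the phosphoenolpyruvate/phosphate translocator (g16465). It was -1.79 for the B3 domain protein IDEF1 (g23975) and -1.58 for a subunit of the pyrophosphate-dependent phosphofructokinase of glycolysis (g23045).

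The change was more positive at low light in 16. It was 4.97 for beta-glucosidase 3 (g92910), 4.27 for ABC transporter C family member 8 (g1392), 4.15 for cysteine-rich receptor-like kinase 10 (g27266) and 4.68 for a replication protein A subunit (g15238). Among receptor and regulatory loci it was 3.5 for RGA5 (g1435), 3.67 for the receptor kinase SD1-7 (g1535), 2.63 for the kinase PERK1 (g15070), 3.17 for a SINA-like ubiquitin ligase (g19242), 2.67 for bHLH19 (g26697) and 2.44 for an F-box protein (g82852). Loci without a described function had 5.03 (g22184), 3.47 (g18269), 3.09 (g24204), 2.88 (g14559), 2.01 (g96364) and 1.75 (g86159). The loci g1435, g1535, g14559, g15070, g19242, g26697, g82852 and g96364 passed the filter through the low-light high-salt pair alone. Their interaction calls are therefore no separate evidence. Values of loci listed at 0 in a group depend on the pseudocount.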

How the results depend on the processing

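The counts of called plant loci (49 higher and 3 lower at low light, 21 in the interaction) depended on several choices, and the cause was not tested. They were 107, 5 and 63 without a filter, 4, 0 and 0 with a filter of at least 5, 24, 3 and 5 with a pseudocount of 0.1, 13, 1 and 8 with a minimum fold of 1.5, and 63, 5 and 33 without trend and robust. Transcripts in place of loci gave 73, 2 and 46. The 5 low-light libraries alone gave 0 and 0. Median-of-ratios scaling gave 34, 3 and 29, and 37 of the 52 calls were kept. Of the 52, 26 were kept with a pseudocount of 0.1, 4 with a filter of at least 5, 25, 30 and 30 without low-light ck replicates 1, 2 and 3, and 0 without either high-salt library or in the 5 low-light libraries alone. Leaving out single libraries gave 0 to 57 higher, 0 to 17 lower and 1 to 103 in the interaction. Without low-light ck replicates 1, 2 and 3 the lower calls were 17, 11 and 11, and without ck replicate 2 the higher calls were 32. Where 1 high-salt library was left, it was assumed to vary like the other groups. No result reversed.

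Deviations of same-numbered libraries correlated at -0.17 to 0.146 over 26 pairs, which gave no sign that replicate numbers pair the samples. In the low-light high-salt pair the deviations mirror each other, so its correlations cannot test pairing. With the replicate number as a block the counts were 29, 3 and 9, and 24 of the 52 calls and 8 of the 18 named were kept. The count without loci found only in the high-salt pair, and the pair counts against the other 4 groups, were added after seeing the data. Of the list medians recomputed under scaling or without 1 low-light library, 11 moved by more than the spread between replicates and 262 did not.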

Other observations

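Loci for senescence and chlorophyll breakdown had none of 19 called at low light. Their median log2 change was 0.38, and 5 lay above and none below ck without overlap, beside 10.9% above and 8.06% below over all plant loci. A senescence-specific cysteine protease SAG39 locus (g82075), chosen after its values were seen, stood at 0.869, 0 and 1.02 in ck and at 7.82 and 4.79 with high salt (limma adjusted p = 0.086). Its identity to that best hit is 42.11%, so the name is uncertain. Another SAG39 locus (g79287) overlapped between the groups, at 0.948, 0 and 3.81 in ck and 3.82 and 2.96 with high salt. A locus of the chlorophyll b reductase NYC1 (g87048), which starts chlorophyll b breakdown, stood at 4.94, 3.85 and 5.01 against 7.80 and 6.29 (limma adjusted p = 0.88). The more abundant NYC1 locus g19088 overlapped between the groups, at 9.99, 11.4 and 12.7 against 17.5 and 9.15. For wax and cutin synthesis, none of 56 loci was called, with 2 above and 11 below ck without overlap. For glycolysis, fermentation and respiration, none of 76 was called, with 8 above and 15 below. Both lists stand beside the same 10.9% and 8.06%.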
